A study of Saccharomyces cerevisiae with 4 samples.

Results

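Some probe sets of Affymetrix yeast arrays carry a letter before the common ending _at of their identifiers. Among them are sets that read sequence present in several copies in the genome. The letter f marks a set built for a family of related sequences, s marks probes common to several sequences, g marks a group of similar sequences, i marks a sequence with too few unique probes, and r marks a set for which selection rules were dropped. Described here are the sets with such a letter for which the platform annotation gives no gene symbol, with control sets left out. There were 582 of them among 9335 probe sets, namely 290 with the suffix f, 142 with i, 69 with s, 43 with r and 38 with g. Their identity rests on the identifier alone, so no gene, repeat or genome position is given to any of them.

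The arrays came from budding yeast (Saccharomyces cerevisiae). The H3 mutant group (2 arrays) was a strain whose histone H3 has lysines 4, 36 and 79 replaced by arginine (H3 K4,36,79R). The wild-type group (2 arrays) was the control strain for that data set, with wild-type histone H3. Both groups grew in selective galactose medium to mid-log phase and then spent 9 h in selective glucose medium, where, per the series text, wild-type H3 is repressed and the mutant protein is left as the H3 of the cell. Cultures were harvested at an optical density (OD600) between 0.5 and 0.7, and about 20 ug of their total RNA went into each biotin labelling. The series text speaks of replicate cultures. The labels used here give no further genotype and do not say which H3 copies each strain carries.

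Repeated sequence in budding yeast includes the Ty retrotransposons with their long terminal repeats, the ribosomal DNA array, the transfer RNA genes and the X and Y prime elements next to the telomeres. Lysines 4, 36 and 79 of H3 are methylated by Set1, Set2 and Dot1. Methylation of lysine 36 is known for keeping transcription from starting inside genes, and methylation of lysines 4 and 79 is known for limiting the spread of Sir silencing proteins from telomeres and ribosomal DNA. A probe set with shared sequence sums signal from every transcript its probes bind, so it can report on a family but not on one copy.

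The suffix was checked against the sets that do have a symbol. Among annotated sets, several genes were named for 34.5% of those with f (102 of 296), 26.0% of those with s (152 of 585), 23.1% of those with i (25 of 108) and 15.5% of those with g (22 of 142). Several genes were named for 0 of 15 sets with r, and for 0.475% of the 5684 sets without a suffix (27 sets). The letter thus marked shared sequence more often in f, s, i and g sets than in unsuffixed sets, while for r the annotation gave no such sign. The 582 sets are therefore called suffixed unannotated sets below, and r sets are not taken as repeats.

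Signals are MAS5 intensities on a linear scale, which were divided by each array's median and brought back to a common level. Changes are mutant minus wild type on the scale of log2(signal + 5.71), where 5.71 is the 20th percentile of all scaled values. This understates changes of dim sets. With 2 arrays a group the precision is low, and no exact permutation test of them can reach a p-value under 0.333. Deposited medians over all sets were 29.7 and 27.8 on the mutant arrays and 37.3 and 38.4 on the wild-type arrays.

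Mutant replicate 1 stood apart for these sets. Over the 582 sets, log2 signals of mutant replicate 2 correlated with those of mutant replicate 1 at r = 0.989, and with those of the wild-type arrays at r = 0.993 and 0.994. Log2 differences had an SD of 0.376 between the mutant arrays and of 0.293 and 0.281 between mutant replicate 2 and each wild-type array. It was 0.220 between the wild-type arrays. Over all 9335 sets the order was different, with an SD of 0.355 between the mutant arrays and of 0.393 and 0.423 between mutant replicate 2 and each wild-type array. For suffixed unannotated sets, then, the mutant arrays differed from each other by more than mutant replicate 2 differed from wild type. The wide gap between mutant arrays was not particular to them. In annotated sets with a suffix the SD was 0.429 between the mutant arrays and 0.261 between the wild-type arrays. Correlations are across probe sets, which share probes and arrays and are not independent.

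Many of the suffixed unannotated sets gave little signal. The mean over the 4 arrays was at or under the pseudocount in 44.2% of them (257 sets), against 52.6% of the 1861 unannotated sets without a suffix, 18.5% of the 1148 annotated sets with a suffix and 6.25% of the 5684 annotated sets without one. The share depended on the suffix. It was 74.6% for i and 74.4% for r, 42.1% for g, 29.7% for f and 24.6% for s. Of the 582 sets, 42 were listed at 0 on at least 1 array and 0 on all 4. Brightness depends on the probes as well as on the RNA, so these shares describe the measurement and are not transcript levels.

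The f sets formed the bright part of the collection. Above the median level of all probe sets lay 156 of 290 f sets, 23 of 69 s sets, 16 of 142 i sets, 5 of 43 r sets and 5 of 38 g sets. The median signal of f sets was 49.0 in the mutant and 49.7 in wild type, and that of i sets was 1.81 in the mutant and 1.51 in wild type. Identifiers with 4-digit numbers that begin with 3 made up 358 of the 582 sets (61.5%), among them 249 of the f sets. The median signal of these 358 sets was 16.9 in the mutant and 16.9 in wild type.

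The comparison of H3 mutant with wild type asks whether loss of the 3 methylated lysines changed RNA from these sequences. None of the 582 sets passed the test. In limma, fitted over all 9335 sets with a threshold of 0.05 on the Benjamini-Hochberg adjusted p, 0 suffixed unannotated sets were higher and 0 were lower, against a background of 0.343% called over the whole array (0.118%, or 11 sets, higher and 0.225%, or 21 sets, lower). A count of 0 among 582 sets is near this background. At an unadjusted p under 0.05 the same limma fit had 28 of the 582 sets higher (4.81%) and 21 lower (3.61%), against 9.67% higher and 8.43% lower over all sets. In both directions together the share was 8.42%, against 18.1% over all sets, so it lay under the background. The smallest unadjusted p among the 582 sets was 0.000597, and the largest p that passed on the array was 0.00017.

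**Figure D1:**
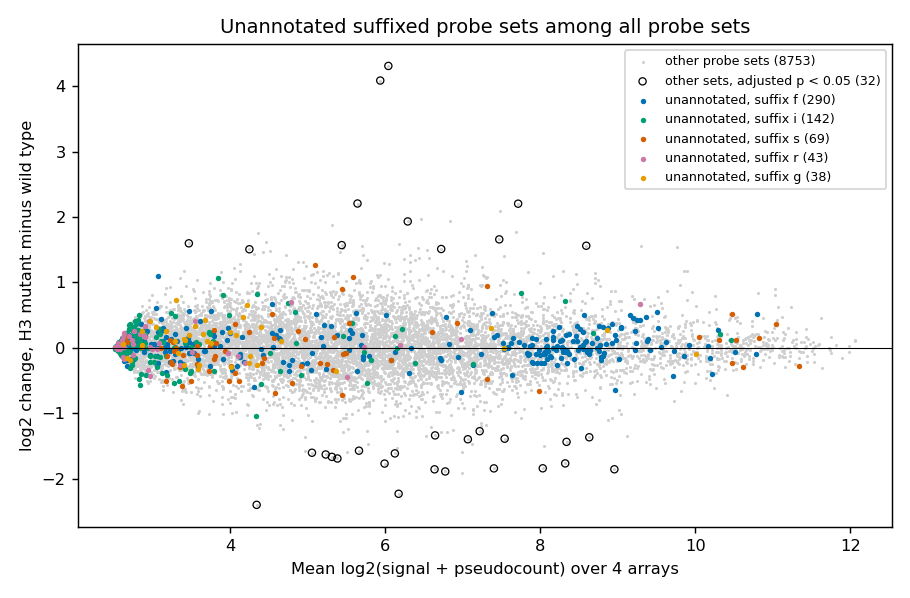
Each point is a probe set, with its mean log2(signal + pseudocount) over the 4 arrays on the x axis and its log2 change, H3 mutant minus wild type, on the y axis. The 582 suffixed unannotated sets are coloured by suffix, all other sets are grey, and the 32 sets with an adjusted p under 0.05 (open circles) are all among the others.

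The changes were centred near 0. The median log2 change was 0.02 over the 582 sets, with quartiles of -0.12 and 0.17 and extremes of -1.04 and 1.27. Over all 9335 sets the median was 0.02 with quartiles of -0.18 and 0.24. The median size of the change, whatever its sign, was 0.15 in suffixed unannotated sets, 0.18 in unannotated sets without a suffix, 0.22 in annotated sets with a suffix and 0.23 in annotated sets without one. The pseudocount pulls dim sets towards 0, and its part in this order was not tested. By suffix the median change was 0.01 for f, 0.03 for i, -0.05 for s, 0.02 for r and 0.11 for g. Each was smaller than the SD of array medians within groups, pooled over both groups, which was 0.05 for f, 0.09 for i, 0.09 for s, 0.10 for r and 0.13 for g.

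The bright sets leaned towards higher signal without passing the test. Above the 90th percentile of level over all probe sets lay 77 of the 582 sets, with a median log2 change of 0.08, and an unadjusted p under 0.05 was reached by 1 that was higher and 1 that was lower (2.60%). In the same range of level the share was 7.17% over all 934 sets, and their median change was 0.02. The mutant arrays both lay above the wild-type arrays in 20 of the 77 sets (26.0%) and below in 7 (9.09%), against 14.9% above and 21.3% below over the 934 sets. Of the 77 changes 49 were above 0. No test of this difference was made, since sets may share sequence. The lean was not recomputed without mutant replicate 1 or on the deposited values. These 77 sets differed by a median of 0.18 between the mutant arrays and of 0.03 between the wild-type arrays, and the SD of the difference was 0.42 between the mutant arrays and 0.12 between the wild-type arrays. Over all sets of that level the medians were 0.33 between the mutant arrays and 0.04 between the wild-type arrays, and the SDs were 0.34 and 0.30. The median half-width of the 95% interval of a change in limma was 0.52 for the 77 sets and 0.42 over the 582 sets.

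The mutant arrays both lay above both wild-type arrays in 22.3% of the suffixed unannotated sets (130 sets), against 26.5% of all sets. They both lay below in 18.4% (107 sets), against 24.1% of all sets. These shares are under the background of the array. Among f sets 62 were higher (21.4%) and 43 lower (14.8%) in this sense, against 13.2% higher and 39.5% lower in annotated f sets. Among s sets 16 were higher (23.2%) and 24 lower (34.8%), so that their share of lower sets lay above that of all sets and beside 29.2% in annotated s sets.

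The set nearest to the threshold was 5832_i_at. It had signals of 16.6 and 13.8 on the mutant arrays and 4.29 and 4.25 on the wild-type arrays. The wild-type signals lay below the pseudocount, and the groups did not overlap. Its log2 change was 1.06 ± 0.16 (SE; limma adjusted p = 0.0685). Close to it in number, 5834_s_at had 50.1 and 44.8 on the mutant arrays and 12.7 and 20.6 on the wild-type arrays. Its log2 change of 1.27 ± 0.22 (SE) was the highest of the 582 sets, with a limma adjusted p of 0.0834. These 2 sets lie under the median level of the array and were singled out after their values were seen. In the same run, 5833_r_at had a change of 0.41 with every signal below the pseudocount. The last set of the run, 5835_i_at, had 0.22 and overlapping groups.

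Among sets above the median level of the array whose groups did not overlap, 47 were higher in the mutant and 31 lower. These are 22.9% and 15.1% of the 205 suffixed unannotated sets at that level, against 25.3% higher and 28.5% lower over all 4667 sets there. The highest change in this class was that of 4053_s_at, with 79.2 and 51.9 on the mutant arrays and 28.2 and 26.5 on the wild-type arrays (log2 1.08 ± 0.22 SE, limma adjusted p = 0.110). The mutant arrays of this set differed more from each other than the wild-type arrays did. Its interval ran from 0.54 to 1.62. Its wild-type signals lay under the median signal of all sets (34.2), so it entered this class only through its mutant arrays. Its rank there is therefore no support for a change. The neighbour in number, 4052_i_at, read at or under 0.0951 on every array, with a change of 0.001.

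The pair 9838_s_at and 9839_s_at followed. The set 9838_s_at had 234 and 195 on the mutant arrays and 113 and 105 on the wild-type arrays (log2 0.94 ± 0.16 SE, limma adjusted p = 0.0792). The set 9839_s_at had 54.1 and 53.4 on the mutant arrays and 31.2 and 21.8 on the wild-type arrays (log2 0.90 ± 0.20 SE, limma adjusted p = 0.119). The wild-type signals of 9839_s_at lay under the median signal of all sets (34.2), so it too entered this class only through its mutant arrays. Both neighbours in number, 9837_s_at with a log2 change of 0.38 and 9840_f_at with 0.60, also had mutant arrays above wild-type arrays. The signals of 9840_f_at were 5.33 and 3.61 on the mutant arrays and 0.0893 and 1.99 on the wild-type arrays, all below the pseudocount.

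The pair 5877_i_at and 5878_r_at lay at the bright end. The set 5877_i_at had 329 and 243 on the mutant arrays and 140 and 174 on the wild-type arrays, a log2 change of 0.83 with a limma adjusted p of 0.135. The set 5878_r_at had 948 and 644 on the mutant arrays and 455 and 521 on the wild-type arrays, a change of 0.67 with a limma adjusted p of 0.224. In both, mutant replicate 1 gave the highest signal.

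The other 3 of the 8 highest were f sets. The set 3406_f_at had 1058 and 714 on the mutant arrays and 591 and 596 on the wild-type arrays (log2 0.55). The set 3333_f_at had 64.4 and 44.8 on the mutant arrays and 35.5 and 35.3 on the wild-type arrays (log2 0.53). The set 3272_f_at had 171 and 219 on the mutant arrays and 130 and 135 on the wild-type arrays (log2 0.53). Their limma adjusted p ran from 0.197 for 3272_f_at to 0.297 for 3406_f_at. Neighbours in number were the dim sets 3271_i_at (0.29) and 3332_i_at (-0.01), both with overlapping groups.

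In the same class the changes to lower signal were smaller. The largest was that of 3416_s_at, with 24.3 and 32.8 on the mutant arrays and 45.8 and 54.6 on the wild-type arrays (log2 -0.71 ± 0.20 SE, limma adjusted p = 0.163). Its mutant signals lay under the median signal of all sets (34.2), so it entered this class only through its wild-type arrays. In its run, 3414_f_at had 1057 and 898 on the mutant arrays and 966 and 932 on the wild-type arrays (log2 0.04). The dim set 3415_i_at between them had -0.42. The set 3355_s_at had 176 and 216 on the mutant arrays and 312 and 313 on the wild-type arrays (log2 -0.66 ± 0.16 SE, limma adjusted p = 0.134). The set 3181_f_at had 434 and 360 on the mutant arrays and 786 and 492 on the wild-type arrays (log2 -0.65, limma adjusted p = 0.270). In 3181_f_at the wild-type arrays were further apart than the mutant arrays, while in 3355_s_at they nearly coincided. The neighbour of 3181_f_at, 3182_i_at, had a change of -0.57 with every signal below the pseudocount.

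Of the 8 lowest, 3 carried numbers from 5464 to 5467. The set 5465_f_at had 83.9 and 106 on the mutant arrays and 150 and 157 on the wild-type arrays (log2 -0.67 ± 0.16 SE, limma adjusted p = 0.134). The set 5464_i_at had 42.9 and 36.1 on the mutant arrays and 52.2 and 68.8 on the wild-type arrays (log2 -0.54). The set 5467_f_at had 820 and 620 on the mutant arrays and 908 and 1031 on the wild-type arrays (log2 -0.44). The run from 5463_r_at to 5467_f_at holds 5 suffixed unannotated sets, and all 5 changes were below 0, from -0.67 to -0.09. The set 5466_i_at among them was at or under 1.79 on every array.

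The remaining lower sets were 2714_s_at and 4666_r_at. The set 2714_s_at had 107 and 154 on the mutant arrays and 196 and 169 on the wild-type arrays (log2 -0.48). It ends a run of 4 s sets, 2711_s_at to 2714_s_at, in which the mutant arrays lay below the wild-type arrays in every set, with changes from -0.51 to -0.28. The set 4666_r_at had 31.1 and 35.6 on the mutant arrays and 46.2 and 48.3 on the wild-type arrays (log2 -0.44). Among g sets the largest change in this class was that of 6945_g_at, with 37.2 and 25.3 on the mutant arrays and 40.4 and 41.1 on the wild-type arrays (log2 -0.35). The limma adjusted p of these 3 sets ran from 0.242 for 4666_r_at to 0.432 for 6945_g_at. Mean mutant signals of 4666_r_at (33.3) and 6945_g_at (31.3) lay under the median signal of all sets (34.2). Their wild-type arrays thus carried them into this class.

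In each of the 5 brightest sets mutant replicate 1 lay above mutant replicate 2. The set 9183_s_at had 2756 and 2017 on the mutant arrays and 3006 and 2708 on the wild-type arrays, a log2 change of -0.27. The set 3915_s_at had 3050 and 1875 on the mutant arrays and 1968 and 1759 on the wild-type arrays, a change of 0.36. In its run, 3912_f_at had -0.18, 3913_s_at 0.51 and 3916_s_at 0.11, and only 3913_s_at had groups that did not overlap. The set 3772_f_at had 3001 and 1489 on the mutant arrays and 1476 and 1471 on the wild-type arrays, a change of 0.52. In 3772_f_at mutant replicate 2 nearly coincided with both wild-type arrays, and mutant replicate 1 alone was high. Its neighbour 3771_f_at had 820 and 555 on the mutant arrays and 482 and 465 on the wild-type arrays (log2 0.51).

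The set 3914_s_at had 2117 and 1714 on the mutant arrays and 1811 and 1634 on the wild-type arrays, a log2 change of 0.15. The set 3529_f_at had 1808 and 1612 on the mutant arrays and 1897 and 1740 on the wild-type arrays, a change of -0.09 with an interval from -0.67 to 0.49. The limma adjusted p of the 5 brightest sets ran from 0.508 to 0.882. The intervals of these 5 changes reached as far as 1.42, for 3772_f_at, so changes of that size remain within what 2 arrays a group could leave unseen.

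Because mutant replicate 1 stood apart, the counts of calls, the median change and the changes of the named sets were also computed without it. The count of calls among the 582 sets was again 0 higher and 0 lower in limma, and over the whole array it was also 0 and 0, so the count says nothing about stability. The median log2 change of the 582 sets was -0.001. Among the brightest sets, 3772_f_at then had 0.01, 3915_s_at 0.01, 3914_s_at -0.0055, 3529_f_at -0.17 and 9183_s_at -0.50. Among the 8 highest, 3406_f_at had 0.26, 3333_f_at 0.30 and 5878_r_at 0.40, while 4053_s_at had 0.80, 9838_s_at 0.81, 9839_s_at 0.89 and 3272_f_at 0.70. Among the 8 lowest, 2714_s_at had -0.23, 3355_s_at -0.52, 5465_f_at -0.51 and 5467_f_at -0.64. Outside those, 6945_g_at had -0.58, 5832_i_at 0.96 and 5834_s_at 1.20.

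The other arrays also decided some values. Leaving out 1 array at a time moved the change by over 1.5 times in 14 of 24 sets. Without mutant replicate 2, 3772_f_at had 1.02, 3915_s_at 0.71, 3914_s_at 0.30, 3529_f_at -0.0068 and 9183_s_at -0.05. In that setting 3406_f_at had 0.83, 3272_f_at 0.35, 2714_s_at -0.74, 5467_f_at -0.24 and 6945_g_at -0.11. The change of 3181_f_at was -0.31 without wild-type replicate 1 and -0.98 without wild-type replicate 2. That of 5464_i_at was -0.36 without wild-type replicate 2. The small changes of 3914_s_at and 3529_f_at also moved by over 1.5 times with 1 wild-type array left out, to 0.22 and -0.03 without replicate 1 and to 0.07 and -0.15 without replicate 2.

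**Figure D2:**
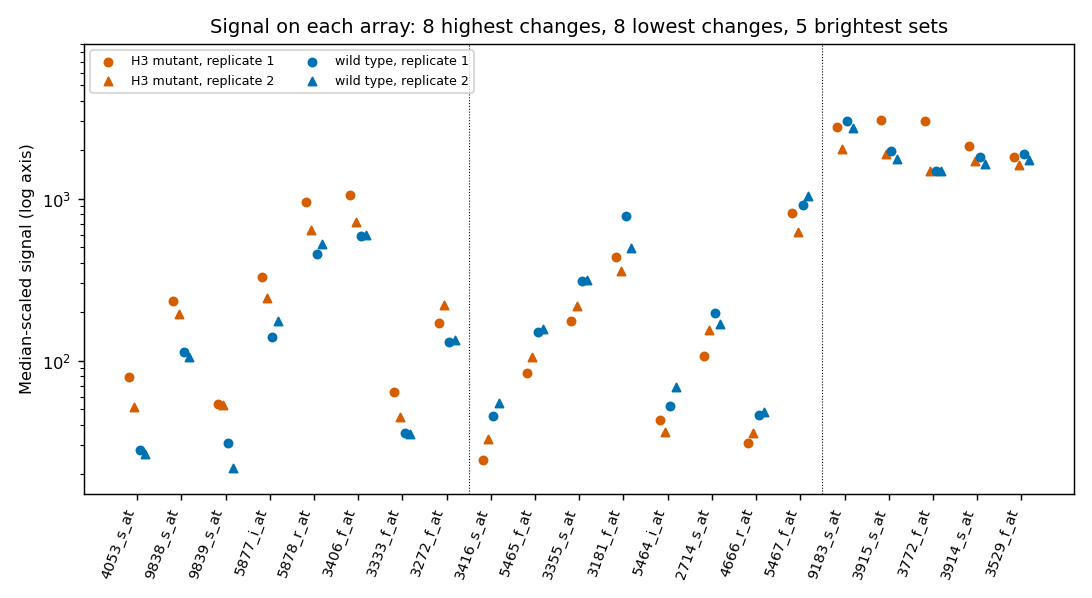
Median-scaled signal (log axis) on each of the 4 arrays for 21 suffixed unannotated sets, with H3 mutant arrays in orange and wild-type arrays in blue. From left to right stand the 8 highest and the 8 lowest log2 changes among sets above the median level whose groups do not overlap, then the 5 brightest sets; in 3772_f_at mutant replicate 1 (3001) stands alone above the other arrays.

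Changes of sets with consecutive numbers were correlated, as they were in the other classes of sets. Of the 582 sets, 426 lay in 152 runs of 2 or more consecutive numbers, the longest of 13 sets, and 156 stood alone. Over the 274 pairs of neighbours the log2 changes correlated with Pearson's r = 0.39 and Spearman's rho = 0.27. Over the 56 pairs in which both sets lay above the median level, r was 0.69 and rho 0.54. For annotated sets with a suffix, the class most like them, r was 0.66 and rho 0.60 over 184 such pairs. The same r was 0.29 over 39 such pairs of unannotated sets without a suffix and 0.33 over 2189 such pairs of annotated sets without one.

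These correlations are descriptions across probe sets of the same 4 arrays, and the weight of runs with large changes in them was not tested. Of the 274 pairs, 58.8% had changes of the same sign, against 58.4% in annotated sets without a suffix, 62.6% in unannotated sets without one and 71.0% in annotated sets with one. Of the 56 brighter pairs, 66.1% had the same sign, against 73.4% in annotated sets with a suffix. In annotated suffixed sets, consecutive numbers named a common gene in 505 of 624 pairs (80.9%), against 1.42% of 4801 pairs of annotated sets without a suffix. Whether neighbouring suffixed unannotated sets share a target was not tested, so the sets of a run are not taken as separate observations.

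**Figure D3:**
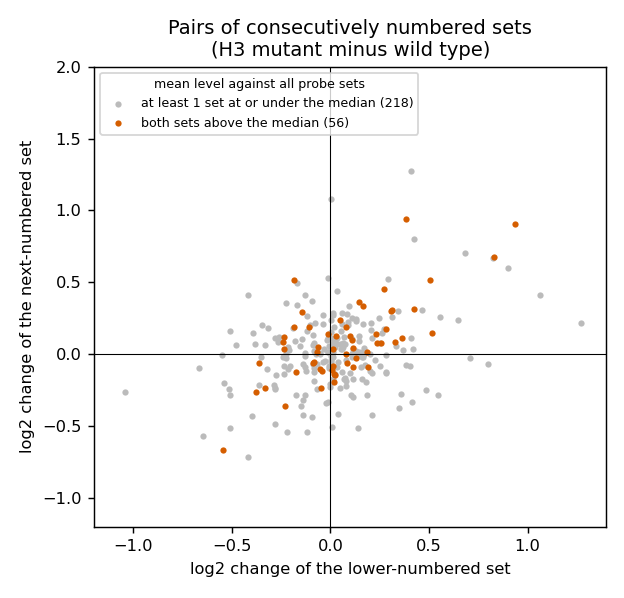
Each point is a pair of suffixed unannotated sets with consecutive identifier numbers, with the log2 change (H3 mutant minus wild type) of the lower-numbered set on the x axis and of the next set on the y axis. The 56 pairs with both sets above the median level (orange) correlate at r = 0.69, and all 274 pairs at r = 0.39.

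Annotated suffixed sets give the same readout for repeats that can be named. They were grouped by the annotation and the RefSeq gene table after the annotation had been seen, and each family's sets overlap in the copies they read. The 62 sets that name open reading frames of the Ty1 and Ty2 retrotransposons had a median signal of 641 in the mutant and 672 in wild type. Their median log2 change was -0.03, with a range from -0.34 to 0.44, and 0 passed in limma over all sets (0 also at an unadjusted p under 0.05).

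The 22 sets whose symbols include YRF1 genes, the helicase genes of the Y prime element, had a median signal of 34.7 in the mutant and 82.3 in wild type. Their median log2 change was -1.01, all 22 changes were below 0, and the mutant arrays lay below the wild-type arrays in 21 (95.5%, against 24.1% of all sets). One of them passed over all sets, 3183_f_at, which had 256 and 255 on the mutant arrays and 1099 and 803 on the wild-type arrays (log2 -1.86, limma adjusted p = 0.0364). That count of 1 was 0 with quantile normalization and with trimmed mean scaling. It was 20 on the values as deposited, where 616 sets were called lower over the whole array. Of the 582 suffixed unannotated sets only 5478_i_at had a change below -1. It read 5.61 and 11.7 on the mutant arrays and 23.9 and 22.5 on the wild-type arrays (log2 -1.04, limma adjusted p = 0.128), and was named after its values were seen.

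The 89 sets for transfer RNA genes had a median signal of 25.8 in the mutant and 43.8 in wild type, and a median log2 change of -0.40. Of these, 85 changes were below 0 and 0 passed over all sets (38 lower and 0 higher at an unadjusted p under 0.05 in limma). Without mutant replicate 2, 65 changes were below 0 and 24 above, and on the values as deposited 31 sets were called lower. The 6 sets for ribosomal RNA had a median signal of 853 in the mutant and 299 in wild type and a median change of 0.90, with 0 passing and 4 higher at an unadjusted p under 0.05 in limma. The 10 ribosomal RNA control sets of the array had a median change of 1.43, with mutant arrays above wild-type arrays in all 10 and 4 called higher in limma over all sets. Differences between these families and the suffixed unannotated sets were not tested. In these bulk signals, a difference in RNA per copy and a difference in copy number between strains cannot be told apart. Whether these RNAs were labelled equally well on each array was not tested.

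**Figure D4:**
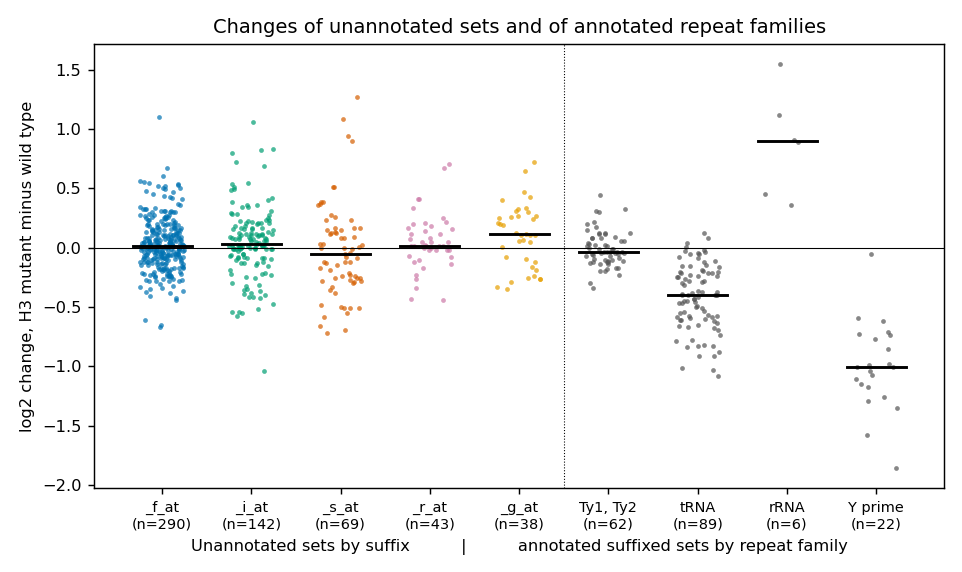
Log2 change, H3 mutant minus wild type, of each suffixed unannotated set by suffix (left of the dotted line, 582 sets in all) and of annotated suffixed sets by repeat family (right, grey), with the median as a black bar. Medians of the unannotated sets lie between -0.05 and 0.11, beside -0.03 for Ty1 and Ty2, -0.40 for transfer RNA, 0.90 for ribosomal RNA and -1.01 for Y prime sets.

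The remaining comparison class, annotated suffixed sets as a whole, held 13 of the 21 sets called lower on the array and 0 of the 11 called higher, a share of 1.13% of 1148 sets. Unannotated sets without a suffix held 0 calls among 1861 sets, as the 582 did. Their median log2 change was 0.07, with mutant arrays above wild-type arrays in 28.6% and below in 14.7%. At an adjusted p under 0.10 in limma, 3 of the 582 sets were higher (5832_i_at, 5834_s_at and 9838_s_at) and 0 were lower, against a background of 1.18% higher and 0.9% lower over all sets.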

How the data were processed

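The authors deposited linear intensity values, for which the submitters' processing notes name MAS5 (version not given in the sources used here). Because the mutant arrays have lower medians, signals were scaled so that the 9335 probe sets of every array share 1 median, the average of the 4 deposited ones. The log2 scale was computed here from the deposited values after adding a pseudocount of 5.71. Detection calls and probe sequences were not used here. Groups were taken from the sample titles. A linear model (lmFit, then eBayes with a trend on level; limma 3.58.1, R 4.3.3) was fitted, with two-sided tests, to all 9335 sets without a replicate block, with Benjamini-Hochberg adjustment over all of them. The procedure was run on simulated data with independent noise of the same variance in both groups. These arrays differ from that setting, so the simulation does not vouch for the calls made here. Where labels do not describe a replicate further, p-values measure only the spread between these arrays.

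The rule for named sets was to take every set past the threshold, the 8 highest and 8 lowest changes among sets above the median level whose groups do not overlap, the 5 brightest sets and the largest change in each suffix. Sets outside this rule are marked in the text. The sets, the families and the lists were chosen with earlier results of these data known. Alternatives were other scalings, pseudocounts of 1 and 16, a filter on dim sets, other variance models, a threshold of 0.10, a replicate block, a narrower choice of suffixes and leaving out each array.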

Additional observations from a re-analysis of the deposited data

How the results depend on the processing

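The count of 0 higher and 0 lower suffixed unannotated sets was the same with quantile normalization, trimmed mean scaling, scaling on annotated sets without a suffix, pseudocounts of 1 and 16, eBayes without trend and suffixes s, x, f and g only. Without scaling, on the deposited values, all sets had a median of -0.25 in place of 0.02, and 1 of the 582 was higher and 11 lower. There the median change of the 582 sets was -0.17 (-0.27 for f, -0.28 for s and -0.07 for g). Mutant arrays lay above wild-type arrays in 8.42% of them and below in 46.4%, against 7.90% above and 52.8% below over all sets. Over all sets 40 were called higher and 616 lower. In that setting 3915_s_at had -0.035 and 3914_s_at -0.25, both opposite in sign to the values above. Over all sets, 11 higher and 21 lower with median scaling became 2 and 2 with either quantile normalization or the trimmed mean, 104 and 83 above the pseudocount, 6 and 14 without trend and 46 and 45 with the robust fit. Leaving out mutant arrays moved 3914_s_at between -0.0055, without mutant replicate 1, and 0.30, without mutant replicate 2. With the 325 sets above the pseudocount only, out of 7520 tested, 3 were higher and 0 lower: 5832_i_at (limma adjusted p = 0.0311), 5834_s_at (0.0353) and 9838_s_at (0.0374). In that filter fewer sets were tested, and 5832_i_at passed it only through its mutant arrays, so its call there is no support. With the robust fit 1 was higher, at an adjusted p under 0.10, 3, and at an unadjusted p under 0.05, a setting chosen after seeing the data, 28 higher and 21 lower. Leaving out 1 array at a time gave 0 to 5 higher and 0 to 2 lower, with 0 of either without a mutant array, 5 and 1 without wild-type replicate 1 and 4 and 2 without wild-type replicate 2. The lone array of a group was then assumed to vary like the other group. Calls over all sets also rose in both directions when either wild-type array was left out. The calls that appeared there were thus not particular to the suffixed unannotated sets. With the replicate block 14 were higher and 7 lower (493 and 311 over all sets). Deviations of same-numbered arrays correlated at -0.02 across probe sets, which cannot decide whether they shared a culture or day. The labels do not say so, and the main fit was therefore made without the block. Of 336 values of 24 sets under these alternatives, 309 kept direction and side of the threshold, 24 passed it and 3 changed sign.

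The Y prime sets kept a median of -1.38 to -0.87 over scalings, pseudocounts and arrays left out. Of them, 13 were called lower above the pseudocount (83 over all sets) and 20 with the replicate block (311 over all sets). The Ty1 and Ty2 sets had -0.43 on the values as deposited. Of the i and r sets, 74.6% and 74.4% read at or under the pseudocount, which limits what their changes can show.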
